A study of Mus musculus with 8 samples.

Results

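Adipose stromal progenitor markers are a set of 9 listed genes, *Pdgfra*, *Pdgfrb*, *Dpp4*, *Pi16*, *Cd34*, *F3*, *Cd55*, *Mme* and *Dcn*, taken by name from the 18820 genes with a value on the arrays. All 9 had a value, and each was read by 1 probe set annotated to that gene alone, so that no choice between probe sets was needed. The genes were compared in epididymal fat, a visceral white adipose depot that lies along the testis, of male WT and *Sucnr1*-/- mice. SUCNR1 is the cell surface receptor for succinate.

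All 8 mice, 4 WT and 4 *Sucnr1*-/-, were on a C57BL/6 background, started a semi-synthetic low-fat diet (LFD) at 8 to 10 weeks of age, ate it for 16 weeks and were killed at 24 to 26 weeks. Both genotypes came from intercrosses of heterozygotes. The mutant allele lacks much of exon 2 of *Sucnr1*, where an IRES/lacZ/neo cassette was put instead, in every cell of the body, and no Cre limits the loss to 1 cell type. RNA of each mouse was hybridised to its own Affymetrix array, and the authors summarised the probes by robust multi-array average (RMA) to log2 expression values. The comparison asks how the tissue differs when the succinate receptor is missing.

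White fat holds fibroblast-like stromal cells from which new adipocytes form. Most carry the PDGF receptor alpha on their surface. Within them, DPP4-positive interstitial progenitors, which also express *Pi16* and *Cd55*, lie in the connective tissue around the fat lobules and give rise to preadipocytes, while *F3*, or CD142, marks a further stromal subset. None of these genes is private to progenitors. *Pdgfrb* is strong in mural cells of vessels, *Cd34* in endothelium, and *Dpp4* in some lymphocytes and in mesothelium. In whole tissue, fewer cells of a type and less RNA per cell cannot be told apart.

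*Sucnr1* itself lay between 8.68 and 9.78 in WT and between 5.41 and 7.11 in *Sucnr1*-/- mice, so the values run with the genotype labels. The log2 difference was -3.05 (SE 0.36, limma adjusted p = 0.321). Array medians were 6.28 to 6.36. The 11 measured adipocyte markers had mean log2 levels of 9.61 to 13.60, and the 6 measured epididymis markers of 3.81 to 4.90. RMA values carry no detection call, so no marker can be called absent. With Benjamini-Hochberg adjustment at 0.05, limma called 0 of 18820 genes (0%). Before adjustment, 632 genes (3.36%) were lower and 652 (3.46%) higher in *Sucnr1*-/- mice at that level. The balance of the unadjusted calls depends on the scaling, with 330 lower and 1352 higher after centring each array on the median of its genes, and 979 lower and 355 higher after centring on the median of all its probe sets.

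Each of the 9 markers overlapped between the genotypes. The mean was lower in *Sucnr1*-/- mice for 8 of them and higher for 1, whereas 46.8% of all genes had a lower mean. The median log2 difference, *Sucnr1*-/- minus WT, was -0.14 over the 9 markers and 0.01 over all genes. All genes include dim ones, whereas the dimmest marker, *Cd55*, lay above 71.5% of genes in mean level. Without the 40% of genes of lowest mean, the median over the genes left was -0.01. Of these, 535 were lower and 369 higher at an unadjusted p under 0.05. For the markers the median was -0.07 without WT replicate 1, -0.09 without WT replicate 2 and -0.19 without knockout replicate 1. No marker was called after adjustment, and 1, *Mme*, was lower at an unadjusted p under 0.05. For none did the 4 *Sucnr1*-/- mice lie outside the range of the WT mice on 1 side, where 1.87% of all genes had all *Sucnr1*-/- mice below all WT mice and 2.37% above. Because the markers are read in the same 8 mice, their directions are not independent of each other. The count of lower means was 6 without WT replicate 3 or without knockout replicate 1, and 9 without WT replicate 1 or knockout replicate 3.

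**Figure D1:**
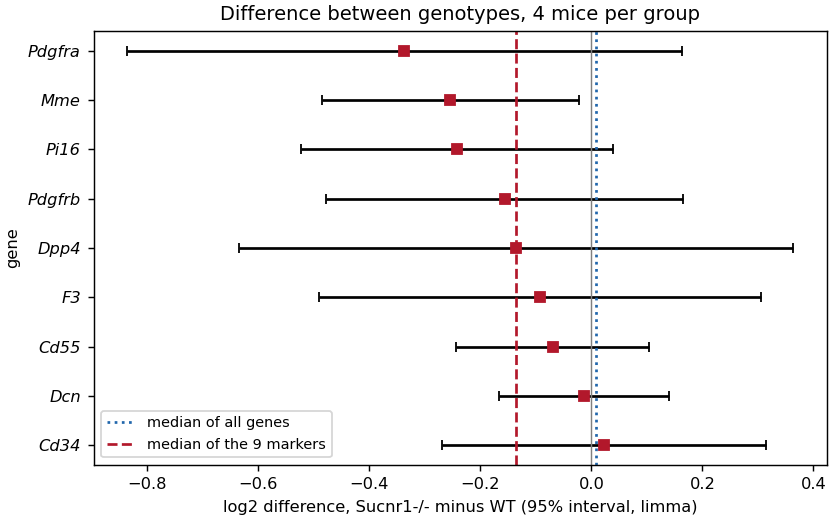
Log2 difference of each marker, *Sucnr1*-/- minus WT (horizontal axis, squares, 4 mice per group), with the 95% interval of the limma fit as bars. The dashed line is the median of the 9 markers at -0.14 and the dotted line that of all genes at 0.01. The interval of *Mme*, unadjusted for the number of genes tested, lies below 0, and the other 8 span 0.

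The regulatory sequence of 3 markers is shown because they are the markers with the largest difference (*Pdgfra*), the smallest unadjusted p (*Mme*) and a level whose order over the mice is set beside immediate early genes further on (*F3*). Each run is the 250 bases before a RefSeq transcription start in GRCm38.p6, on the plus strand, 5′ to 3′, at chr5:75152001-75152250 for *Pdgfra*, chr3:63294961-63295210 for the first of 3 listed starts of *Mme* and chr3:121723287-121723536 for *F3*. Capitals mark every match, on either strand, to TGANTCA, the core bound by AP-1, and to GGGCGG, a GC box. Matches to TATAAA were searched too and none was found in these 3 windows.
Pdgfra: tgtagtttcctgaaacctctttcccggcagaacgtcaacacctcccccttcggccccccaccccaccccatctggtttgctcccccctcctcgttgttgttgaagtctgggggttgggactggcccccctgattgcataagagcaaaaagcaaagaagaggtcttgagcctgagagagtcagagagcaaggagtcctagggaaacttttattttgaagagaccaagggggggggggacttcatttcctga
Mme: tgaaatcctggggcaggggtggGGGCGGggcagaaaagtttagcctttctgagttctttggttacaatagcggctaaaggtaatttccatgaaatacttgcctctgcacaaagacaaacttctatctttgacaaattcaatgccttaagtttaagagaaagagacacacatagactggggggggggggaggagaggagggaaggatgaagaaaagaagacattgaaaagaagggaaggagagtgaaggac
F3: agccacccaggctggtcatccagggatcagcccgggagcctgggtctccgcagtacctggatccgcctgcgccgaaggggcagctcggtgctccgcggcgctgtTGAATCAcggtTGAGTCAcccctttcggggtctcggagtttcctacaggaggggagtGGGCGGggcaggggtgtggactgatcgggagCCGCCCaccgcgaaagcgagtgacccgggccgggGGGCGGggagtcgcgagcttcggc
The *F3* window holds 2 matches to TGANTCA, which begin 146 and 135 bases before the start, and 3 to GGGCGG. The *Mme* window holds 1 match to GGGCGG, 228 bases before the start, and the *Pdgfra* window holds none of the 3 motifs. The windows of the other 2 *Mme* starts hold 2 matches to GGGCGG each, and that of the third start also holds 1 to TGANTCA. Among 32851 RefSeq starts, windows of 250 bases held TGANTCA in 6.75%, GGGCGG in 32.7% and TATAAA in 12.4% of cases. Windows were read for 7 of the markers, 9 starts in all. *Pdgfrb* was left out because starts on its chromosome, 18, were not read, and no start was listed for *Dcn*. The windows ran from 43.6% G and C for *Dpp4*, which has a TATAAA match, to 70.0% for *F3* and 73.6% for the third start of *Mme*. A match is a string of letters and was not measured as a bound site.

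*Pdgfra* and *Pdgfrb* encode the receptor tyrosine kinases for the platelet-derived growth factors, with *Pdgfra* the broad marker of adipose fibroblasts. *Pdgfra* was at 10.74, 10.38, 10.03 and 9.82 in WT replicates 1 to 4 and at 10.07, 9.44, 10.14 and 9.98 in *Sucnr1*-/- replicates 1 to 4. WT replicate 1 lay highest and *Sucnr1*-/- replicate 2 lowest, and the other mice overlapped. WT mice averaged 10.24 ± 0.40 (SD, n = 4), and *Sucnr1*-/- mice 9.91 ± 0.32 (SD, n = 4). This log2 difference of -0.34 (SE 0.22, 95% interval -0.84 to 0.16, limma adjusted p = 0.746) was the largest of the 9 in size and was within the spread between mice. It was -0.17 without WT replicate 1, -0.18 without knockout replicate 2 and -0.48 without WT replicate 4.

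*Pdgfrb* was at 10.07, 10.06, 9.43 and 9.71 in the WT mice and at 9.77, 9.56, 9.66 and 9.65 in the *Sucnr1*-/- mice. The WT mice spanned both ends of the range, with replicates 1 and 2 above and replicate 3 below all *Sucnr1*-/- mice. The difference was -0.16 (SE 0.14, 95% interval -0.48 to 0.17, limma adjusted p = 0.789). Leaving out WT replicate 3 made it -0.28, with an unadjusted limma p of 0.0295. The groups then overlapped through *Sucnr1*-/- replicate 1 alone. Without WT replicate 1 or WT replicate 2 it was -0.07 and -0.08.

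*Mme* encodes neprilysin, or CD10, a membrane metallopeptidase that cleaves small peptides. It was at 9.61, 9.63, 9.78 and 10.03 in the WT mice and at 9.43, 9.64, 9.51 and 9.45 in the *Sucnr1*-/- mice. Of the *Sucnr1*-/- mice 3 lay below every WT mouse, and replicate 2 lay just above WT replicates 1 and 2. *Sucnr1*-/- mice averaged 9.51 ± 0.09 (SD, n = 4) against 9.76 ± 0.19 (SD, n = 4) in WT, or 0.838 times the WT level once the log2 difference is taken to the linear scale. The log2 difference of -0.25 (SE 0.10, 95% interval -0.49 to -0.02) had an unadjusted limma p of 0.0346 and an adjusted p of 0.712 over all genes. The exact two-sided permutation test over the 8 mice gave p = 0.0857, where the smallest it allows is 0.0286. The difference was -0.16 without WT replicate 4, which had the highest value, and without knockout replicate 2 the groups no longer overlapped. The unadjusted limma p rose to between 0.0631 and 0.0811 when WT replicate 3 or 4 or knockout replicate 1, 3 or 4 was left out.

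*Mme* lies on chromosome 3, as does *Sucnr1*, and in the gene order of GRCm38.p6 the 2 genes are separated by 6 protein-coding genes, *Mbnl1*, *P2ry1*, *Rap2b*, *Arhgef26*, *Dhx36* and *Gpr149*. A stretch of chromosome around an exchanged gene can come from the embryonic stem cell strain. These 6 genes had log2 differences from -0.14 to 0.09, with 3 lower and 3 higher, and the smallest unadjusted limma p among them was 0.257. Whether the origin of this stretch plays a part in the *Mme* value was not tested. *F3* is on the same chromosome and the other 7 markers are on others.

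**Figure D2:**
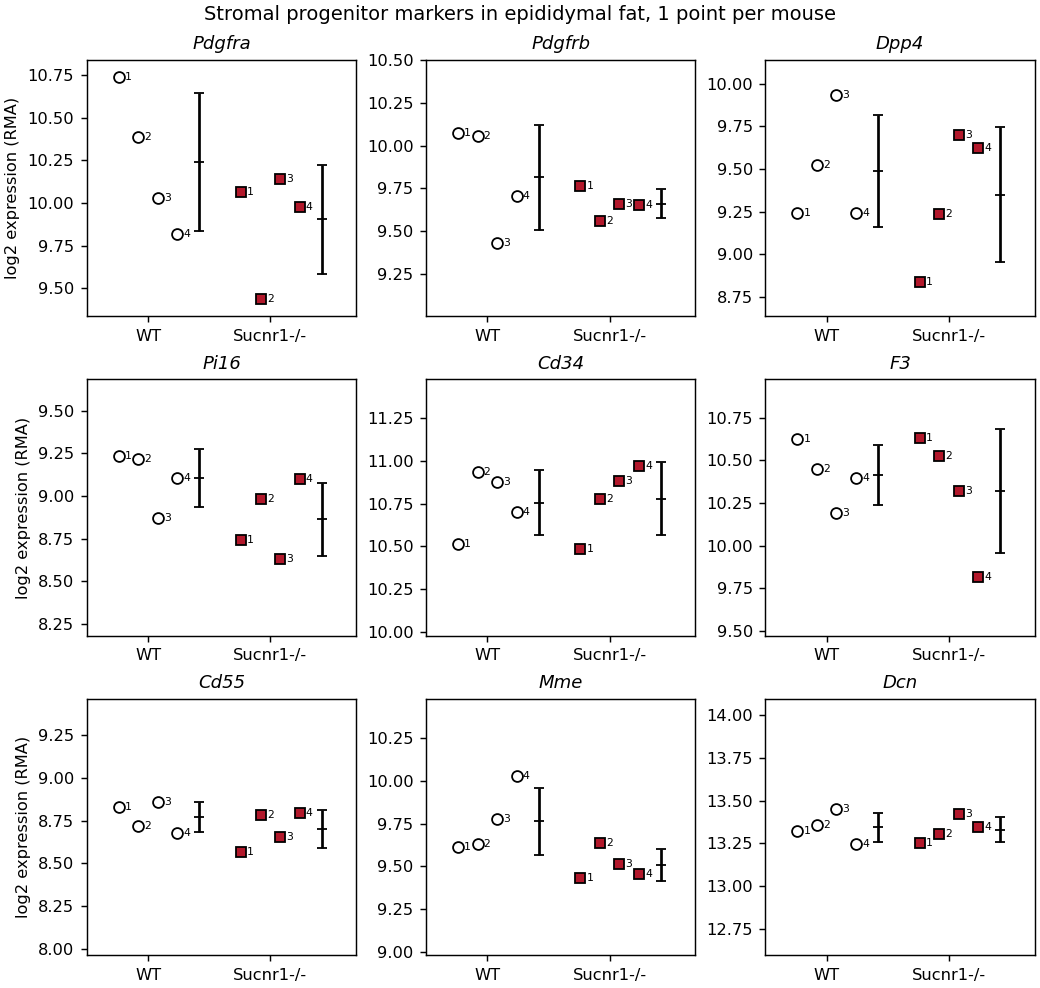
Log2 expression (RMA, vertical axis, each panel spanning the same number of log2 units) of the 9 markers in epididymal fat, 1 numbered point per mouse, with circles for WT, red squares for *Sucnr1*-/- and mean and SD beside each group. The groups overlap in every panel, and the spread is widest for *Pdgfra* and *Dpp4* and narrowest for *Dcn*.

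*Dpp4*, *Pi16* and *Cd55* mark the interstitial progenitors. *Dpp4*, the surface peptidase CD26 that inactivates incretins, was at 9.24, 9.52, 9.94 and 9.24 in the WT mice and at 8.84, 9.24, 9.70 and 9.62 in the *Sucnr1*-/- mice. The highest mouse was WT replicate 3 and the lowest *Sucnr1*-/- replicate 1. The difference of -0.14 (SE 0.22, 95% interval -0.64 to 0.36, limma adjusted p = 0.877) turned to 0.01 without WT replicate 3 and to 0.03 without knockout replicate 1.

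*Pi16*, a peptidase inhibitor of the CAP family, was at 9.24, 9.22, 8.87 and 9.10 in the WT mice and at 8.74, 8.98, 8.63 and 9.10 in the *Sucnr1*-/- mice. WT replicates 1, 2 and 4 lay above every *Sucnr1*-/- mouse, and WT replicate 3 lay among them. The difference was -0.24 (SE 0.12, 95% interval -0.52 to 0.04, limma adjusted p = 0.725). Leaving out 1 mouse moved it between -0.32 and -0.16, and without WT replicate 3 the groups no longer overlapped. The unadjusted limma p was 0.0831 with all mice. It became 0.0297 when WT replicate 3 was left out, or 0.0295 when knockout replicate 4 was.

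*Cd55*, the decay-accelerating factor that limits complement on the cell surface, was at 8.83, 8.72, 8.86 and 8.68 in the WT mice and at 8.57, 8.79, 8.66 and 8.80 in the *Sucnr1*-/- mice. The difference was -0.07 (SE 0.08, 95% interval -0.24 to 0.10, limma adjusted p = 0.821). A further probe set is annotated to both *Cd55* and its neighbour *Cd55b* and was not used for the gene. There the difference ran the other way, at 0.17, from values of 4.76 to 5.44.

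Of 15 measured further genes of interstitial progenitors, such as the ligand *Wnt2*, 8 had a lower and 7 a higher mean in *Sucnr1*-/- mice, with a median of -0.02, and none was past an unadjusted p of 0.05. The one of smallest p, *Anxa3*, a calcium-dependent phospholipid-binding protein, differed by 0.18 (SE 0.11), and *Wnt2* by -0.16 (SE 0.14). The split of this list turned on single mice, from 3 lower of 15 without knockout replicate 1 (median 0.07) and 5 without WT replicate 3 (0.02) to 12 without knockout replicate 4 (-0.10). It was 6 lower with each array centred on the median of its genes and 11 with centring on all probe sets.

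*F3* encodes tissue factor, the receptor that starts coagulation, and marks the CD142-positive stromal subset. It was at 10.62, 10.45, 10.19 and 10.40 in the WT mice and at 10.63, 10.53, 10.32 and 9.81 in the *Sucnr1*-/- mice. Replicate 1 was the highest mouse of both genotypes, and *Sucnr1*-/- replicate 4 lay below all others. The difference of -0.09 (SE 0.17, 95% interval -0.49 to 0.31, limma adjusted p = 0.896) turned to 0.08 without knockout replicate 4. The mean log2 level of 10 immediate early genes, which cells switch on within minutes of a stimulus, was 9.46, 8.59, 8.50 and 8.72 in the WT mice and 9.22, 8.26, 8.44 and 8.22 in the *Sucnr1*-/- mice. The same replicate 1 of each genotype was highest and *Sucnr1*-/- replicate 4 lowest there too. The order of the other mice was not the same. *Sucnr1*-/- replicate 2 came next after these highest mice for *F3* (10.53) but was next to lowest for the immediate early genes (8.26). The part of these genes in the *F3* values was not tested. Of these 10 genes 9 had a lower mean in *Sucnr1*-/- mice (median -0.26), which became 6 (median -0.08) without WT replicate 1, while the median was -0.60 without knockout replicate 1. *Nr4a1*, an orphan nuclear receptor, differed by -0.74 (SE 0.25), and *Jun*, a subunit of AP-1, by 0.28 (SE 0.08), with all *Sucnr1*-/- mice above all WT mice. Of 10 further genes of the CD142-positive subset 7 had a lower and 3 a higher mean, with a median of -0.08. These became 4 and 6 (median 0.06) without knockout replicate 1 and 5 and 5 (median -0.0045) without WT replicate 3. The vessel and matrix calcification inhibitor *Mgp* differed by -0.28 (SE 0.15) and the growth factor binding protein *Igfbp3* by -0.85 (SE 0.45), and none was past an unadjusted p of 0.05.

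*Cd34* and *Dcn* are markers of the stroma at large. *Cd34*, a sialomucin that endothelium carries too, was at 10.51, 10.94, 10.88 and 10.70 in the WT mice and at 10.48, 10.78, 10.88 and 10.97 in the *Sucnr1*-/- mice. It was the marker with a higher mean in *Sucnr1*-/- mice, by 0.02 (SE 0.13, 95% interval -0.27 to 0.31, limma adjusted p = 0.968), and the sign turned without WT replicate 1 (-0.06), knockout replicate 3 (-0.01) or knockout replicate 4 (-0.04). *Dcn*, the collagen-binding proteoglycan decorin, was at 13.32, 13.36, 13.45 and 13.24 in the WT mice and at 13.25, 13.31, 13.42 and 13.35 in the *Sucnr1*-/- mice. Its difference was -0.01 (SE 0.07, 95% interval -0.17 to 0.14, limma adjusted p = 0.965). It turned to 0.02 without WT replicate 3 and 0.01 without knockout replicate 1. Of 18 measured genes expressed across fibroblasts 7 had a lower and 11 a higher mean, with a median of 0.03, and 0 were past an unadjusted p of 0.05. With centring on all probe sets 10 were lower and 8 higher. *Col6a1*, a chain of collagen VI, differed by 0.17 (SE 0.09), *Lox*, which crosslinks collagen, by -0.30 (SE 0.18) and the matrix protein *Dpt* by 0.11 (SE 0.07).

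The spread between mice differed widely among the markers. The SD within genotypes, pooled over both, was 0.36 for *Pdgfra* and for *Dpp4*, above that of 93.4% of all genes for both, and 0.29 for *F3*. It was 0.08 for *Dcn*, above that of 14.9% of genes, and 0.10 for *Cd55*. The median was 0.20 over the 9 markers and 0.14 over all genes. A given difference was thus harder to detect for *Pdgfra* or *Dpp4* than for *Dcn* or *Cd55* with 4 mice per group.

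**Figure D3:**
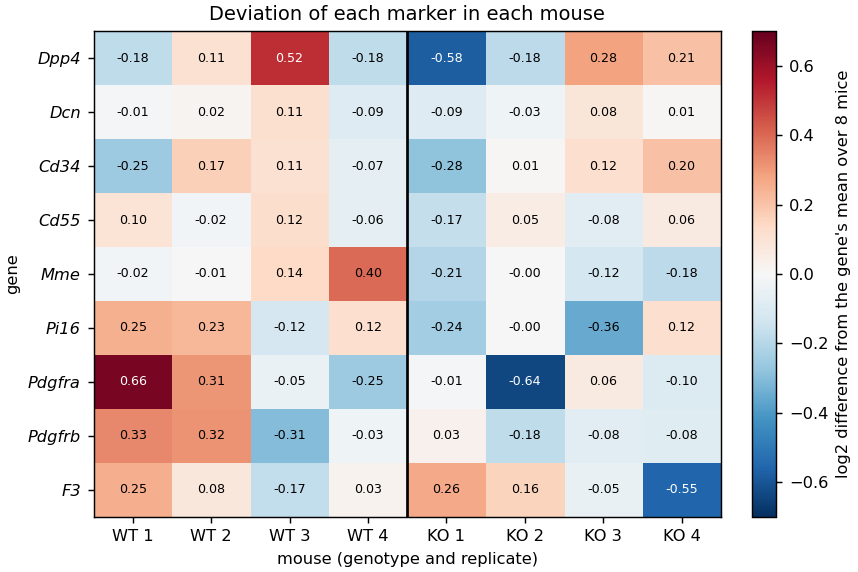
Deviation of each marker (rows) in each mouse (columns, WT left and *Sucnr1*-/- right of the line) from that gene's mean over the 8 mice, on the log2 scale given by the colour bar and printed in each cell. *Dpp4*, *Dcn* and *Cd34* share a low value in knockout replicate 1, as do *Pi16* (-0.24), *Mme* (-0.21) and *Cd55* (-0.17). *F3* is high there and low in knockout replicate 4.

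The markers did not rise and fall together as 1 block across the mice. Of 36 pairs, 20 had a Pearson correlation above 0 and 16 below 0 over the 8 mice, from -0.75 to 0.91, with a median of 0.07. The lowest r was that of *Cd34* and *F3*, with rho = -0.79 (exact permutation p = 0.0257 for r and 0.0279 for rho, adjusted 0.231 and 0.335). This pair is not among those shown. The 4 pairs shown were picked after their values were seen. *Dpp4* and *Dcn* had r = 0.91 and rho = 0.83 (exact permutation p = 0.00129 and 0.0154, adjusted over the 36 pairs 0.0464 and 0.277), and r was 0.83 without the 2 mice farthest from the median of *Dpp4*. *Dpp4* and *Cd34* had r = 0.82 and rho = 0.71 (exact permutation p = 0.0118 and 0.0576, adjusted 0.213 and 0.415), with r = 0.799 without the same 2 mice. *Dpp4* and *F3* ran in opposite directions, with r = -0.68 and rho = -0.88 (exact permutation p = 0.0600 and 0.00724, adjusted 0.432 and 0.261), and r = -0.65 without them. *Pdgfra* and *Pdgfrb* had r = 0.77 and rho = 0.71 (exact permutation p = 0.0229 and 0.0576, adjusted 0.231 and 0.415), with r = 0.64 without the 2 mice farthest from the median of *Pdgfra*. After removing the genotype means the Pearson correlations of the 4 pairs shown were 0.91, 0.85, -0.75 and 0.72. The genes of a pair share their array in each mouse. Thus 1 pair, *Dpp4* with *Dcn*, passed after adjustment by r and none by rho.

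**Figure D4:**
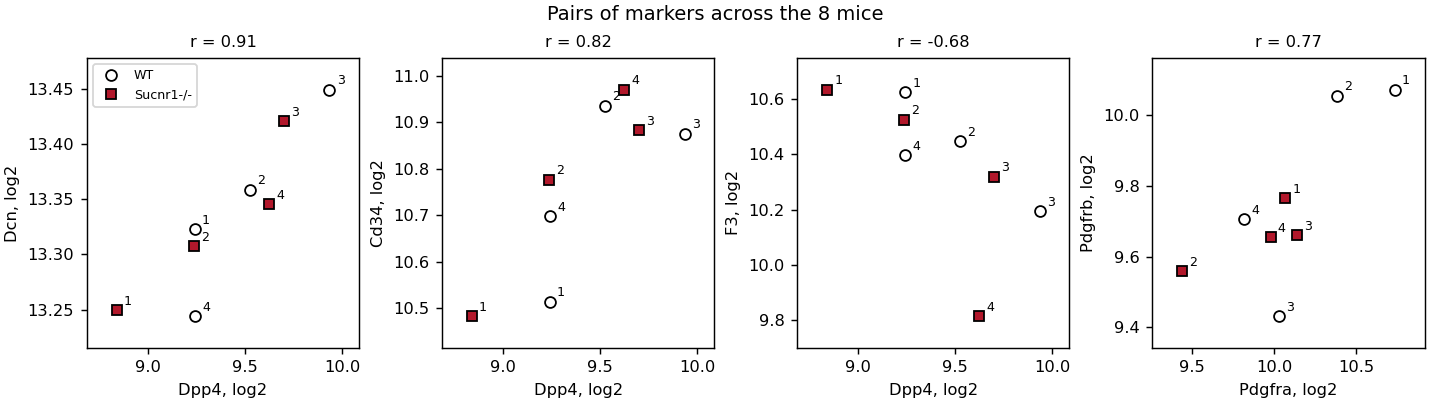
Log2 expression of 4 pairs of markers, 1 numbered point per mouse, with circles for WT and red squares for *Sucnr1*-/-, and Pearson's r over the 8 mice above each panel. Both genotypes lie along the same rising cloud for *Dpp4* with *Dcn* (r = 0.91), and the *Dpp4* and *F3* values fall against each other (r = -0.68).

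Averaged over the 9 markers, each centred on its own mean, the mice lay at 0.13, 0.13, 0.04 and -0.02 for WT replicates 1 to 4 and at -0.14, -0.09, -0.02 and -0.04 for *Sucnr1*-/- replicates 1 to 4. The groups overlapped, since *Sucnr1*-/- replicate 3 (-0.0155) lay just above WT replicate 4 (-0.0161). *Pdgfra* followed this mean most closely (r = 0.73) and *F3* least (r = 0.02). Each marker is itself part of this mean, and one with a wide spread, such as *Pdgfra*, weighs more in it. The 5 genes outside the list whose values over the 8 mice were most like this mean were *Snord35b* (r = 0.98), *Trmt2a* (0.98), *Mboat2* (0.98), *Slc37a1* (0.96) and *Prkar1a* (0.95). These r were picked as the highest among all genes with a standard name, and they describe these 8 mice alone.

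Of 13 ligands and partners of the PDGF receptors 4 had a lower and 9 a higher mean in *Sucnr1*-/- mice, with a median of 0.00. The split was 8 and 5 (median -0.01) without WT replicate 3, and 7 and 6 without knockout replicate 2 or with centring on all probe sets. *Pdgfrl*, which encodes a receptor-like protein, was at 6.46, 6.53, 6.31 and 6.48 in the WT mice and at 6.64, 6.72, 6.83 and 6.69 in the *Sucnr1*-/- mice. All *Sucnr1*-/- mice lay above all WT mice, by a mean of 0.27 (SE 0.07), with a limma adjusted p of 0.712. *Furin*, a protease that processes growth factor precursors, differed by -0.18 (SE 0.09) and the endocytic receptor *Lrp1* by -0.09 (SE 0.06). Of 15 genes listed for committed preadipocytes 5 had a lower and 10 a higher mean, with a median of 0.04. The split was 8 and 7 (median -0.01) without WT replicate 1. Read in whole fat, these values are not those of preadipocytes alone, and the part of adipocytes in them was not tested. *Col15a1*, a basement membrane collagen, differed by 0.38 (SE 0.13) and was the gene of this list past an unadjusted p of 0.05. The chains *Col4a1* and *Col4a2* of basement membrane collagen differed by -0.27 (SE 0.14) and -0.17 (SE 0.09).

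**Figure D5:**
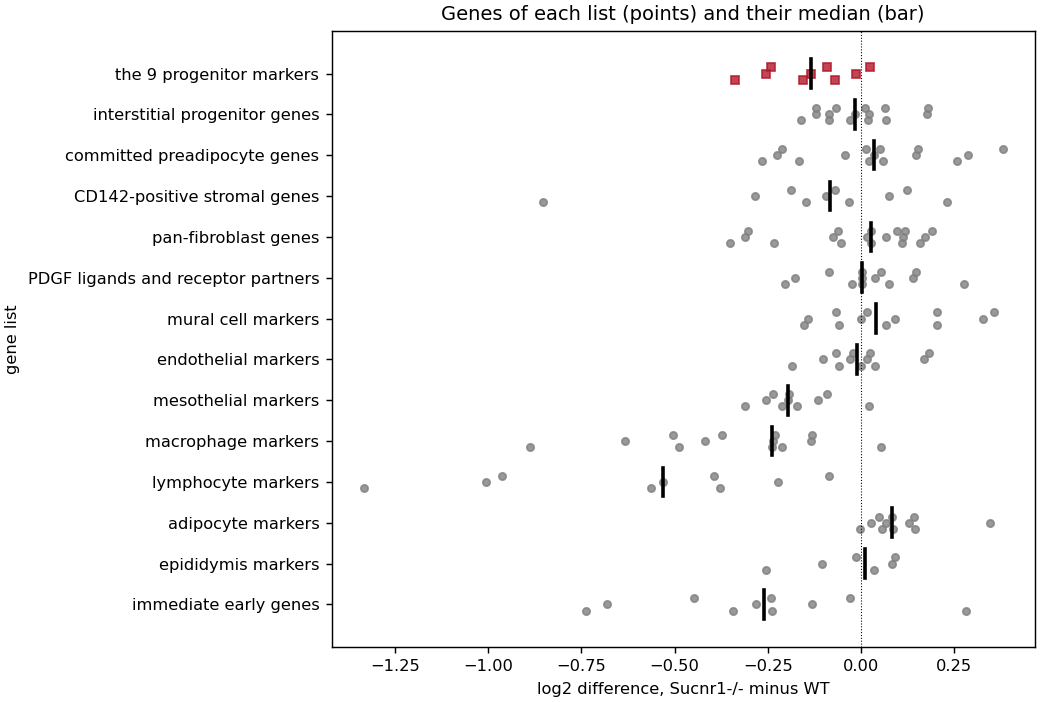
Log2 difference, *Sucnr1*-/- minus WT (horizontal axis), of each measured gene (points) of the progenitor markers (top row, red squares) and of 13 further lists, with the median of each list as a bar. The medians of the stromal and vascular lists lie near 0, between -0.08 and 0.04, while those of macrophage, lymphocyte, mesothelial and immediate early genes lie lower, between -0.53 and -0.19. The mesothelial median turns to 0.02 without knockout replicate 1.

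Cells that share these markers were measured in the same mice. Of 12 mural cell markers 5 had a lower and 7 a higher mean (median 0.04), with *Rgs5* of pericytes at 0.36 (SE 0.18) and the proteoglycan *Cspg4* at 0.33 (SE 0.15), whereas *Pdgfrb* had a lower mean. Without knockout replicate 4 the mural split was 7 lower and 5 higher (median -0.07), and without WT replicate 2 it was 2 and 10 (median 0.19). Their summed linear signal was 10549 to 14770 in WT and 10785 to 17266 in *Sucnr1*-/- mice. Of 12 endothelial markers 7 were lower and 5 higher (median -0.01), with sums of 12272 to 16819 and 12674 to 14257. Without WT replicate 2, the mouse of the highest endothelial sum, 1 was lower and 11 were higher (median 0.11), 2 of them at an unadjusted p under 0.05. With centring on genes 4 were lower and 8 higher. The tight junction gene *Cldn5* differed by 0.18 (SE 0.10) and the VEGF receptor *Kdr* by -0.18 (SE 0.17).

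Mesothelial markers, for the cells that line visceral fat, were lower in mean for 9 of 10 measured genes (median -0.19), and none was past an unadjusted p of 0.05. This direction rested on single mice, with 5 lower and 5 higher (median 0.02) without knockout replicate 1 and 6 lower (median -0.08) without WT replicate 3, against 10 lower (median -0.42) without knockout replicate 3. The transcription factor *Wt1* differed by -0.19 (SE 0.24) and the keratin *Krt18* by -0.31 (SE 0.31). Their summed signal varied more between mice than between genotypes, at 8266, 10243, 10977 and 5919 in the WT mice and at 4851, 7557, 11451 and 7963 in the *Sucnr1*-/- mice. *Dpp4* was highest in the 2 mice with the highest sums, WT replicate 3 and *Sucnr1*-/- replicate 3, and lowest in the mouse with the lowest, *Sucnr1*-/- replicate 1. The part of mesothelium in the *Dpp4* values was not tested.

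Macrophage markers were lower in mean for 12 of 13 genes (median -0.24), 4 of them at an unadjusted p under 0.05. That number was 2 without knockout replicate 2 and 7 without WT replicate 4 or knockout replicate 1, and at least 12 were lower whichever mouse was left out. Their summed signal was 25299 to 32291 in WT and 21754 to 25428 in *Sucnr1*-/- mice. *Adgre1*, a classic surface marker of mouse macrophages, differed by -0.50 (SE 0.15) and the lysosomal *Cd68* by -0.49 (SE 0.15), with all *Sucnr1*-/- mice below all WT mice for both. All 9 measured lymphocyte markers were lower in mean (median -0.53, from -0.28 without WT replicate 3 to -0.92 without knockout replicate 1), with sums of 976 to 3844 and 669 to 1861, and the B cell receptor chain *Cd79a* differed by -1.33 (SE 0.67). Adipocyte markers had a higher mean for 10 of 11 genes (median 0.08, or 0.03 without WT replicate 1), with sums of 81681 to 94533 in WT and 92316 to 96463 in *Sucnr1*-/- mice, and the glucose transporter *Slc2a4* differed by 0.35 (SE 0.14). Epididymis markers were split 3 and 3 (median 0.01), or 0 and 6 (median 0.11) without WT replicate 2, with sums of 119 to 191 and 130 to 143. None of the genes of these lists was called after adjustment. The part of the macrophage, lymphocyte and adipocyte signal in the values of the progenitor markers was not tested.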

How the data were processed

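Total RNA of epididymal fat from 8 mice was measured on Affymetrix Mouse Gene 1.1 ST arrays, 1 per mouse. The deposited log2 values were made by the authors with RMA, the tool their processing notes name. It removes background and differences in overall signal between arrays and compresses dim values. Its version, the build and scan dates are not given in the sources used here. Precision depends on how many arrays there are and on the spread between mice.

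Of 35556 probe sets, the 21218 with exactly 1 gene symbol were kept (1881 had several). Entrez IDs matched 21185 of them to RefSeq (GRCm38.p6), with 0 renamed. The brightest stood for each of 1386 genes with more than 1. Groups came from the titles. Genotypes were compared with limma 3.58.1 in R 4.3.3 (lmFit, eBayes, 2.66 prior degrees of freedom), with Benjamini-Hochberg adjustment over 18820 genes. The procedure was tested on simulated data. Python 3.11.15, scipy 1.17.1 and matplotlib 3.10.9 gave permutation tests, correlations and figures. The labels do not say whether mice shared litters or cages.

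The markers and gene lists were chosen with earlier results of these data known. Named genes are the markers, up to 3 genes of smallest unadjusted p per list, *Sucnr1*, genes between it and *Mme*, and the 5 most like the markers' mean. Some listed genes, among them *Fbn1*, *Ly6a*, *Mfap4*, *Muc16*, *Lck*, *Cfd*, *Crisp1* and *Cst8*, are not analysed here. Alternatives changed the limma prior (trend with intensity), the test (the methods' t-test), the filter (the dimmest 40% of genes dropped), array weights, scaling (quantile, or the median of genes), the block (replicate number) and the probe set rule (averaged, or several symbols allowed), or left out 1 array. The authors' methods name Student's t-test for a pair of groups in general and leave the statistics of the arrays to a supplement. Centring on the median of all probe sets was added after seeing the data.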

Additional observations from a re-analysis of the deposited data

Results flagged for a closer look

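Across the markers, their mean, *Sucnr1* and the mean level of each gene list, 48 groups of 4 mice were examined for a mouse far from the other 3. For the mean log2 level of the 12 endothelial markers, WT replicate 2 lay at 10.17, apart from the other WT mice at 9.67 to 9.73, with 0.873 of the group's range as the gap. Chance alone marks about 1 in 20 groups, and 1 of the 48 was marked. *Cd34*, which endothelium expresses, was at 10.94 in this mouse, the highest of the WT mice. WT replicate 3, with the lowest endothelial mean of the WT mice (9.67), had *Cd34* at 10.88. *Sucnr1*-/- replicate 4 had it at 10.97, with an endothelial mean of 9.95. The part of endothelium in the *Cd34* values was not tested. The mean log2 level of the 6 epididymis markers was also high in WT replicate 2, at 4.86 against 4.27 to 4.37 in the other WT mice. The rule did not mark that group. Of these markers *Lcn8* was at 5.96 in this mouse and at 4.39 to 4.54 in the other WT mice. Whether epididymis came along with the fat of WT replicate 2 was not tested.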

How the results depend on the processing

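No marker passed an adjusted p of 0.05 in the reported fit or in any of 18 alternatives, where the smallest adjusted p was 0.466 (*Pi16*). Of 162 marker values under these alternatives 151 kept their direction and 11 turned. *Pdgfra*, *Pdgfrb*, *Pi16*, *Cd55* and *Mme* kept a lower mean throughout. *Cd34* turned to -0.0016 with array weights and to -0.0077 with centring on all probe sets, and *Dcn* to 0.0279 with centring on genes. When each mouse was left out in turn the ranges were -0.058 to 0.121 for *Cd34*, -0.0461 to 0.0221 for *Dcn*, -0.252 to 0.0344 for *Dpp4* and -0.196 to 0.077 for *F3*. The number of markers at an unadjusted p under 0.05, 1 as reported, was 0 by the methods' t-test and with centring on genes, 2 with centring on all probe sets, and 0 to 2 when a mouse was left out. *Mme* was the marker past it in the reported fit, with an unadjusted p of 0.0203 to 0.0811 over the alternatives. The number of markers whose groups do not overlap, 0 as reported, was 1 with centring on all probe sets and 0 to 1 when a mouse was left out. The 1284 genes at an unadjusted p under 0.05 became 808 to 1659 when a mouse was left out, with the lowest without knockout replicate 2. With the replicate number as a block (replicate block) 2 markers were under 0.05 unadjusted, and 1905 genes, 809 higher and 1096 lower. Same-numbered mice had correlations of 0.45, 0.14, 0.11 and 0.01 of their deviations from the group means, and for numbers 1 and 2 alone did mice correlate best with their own number, so the numbers were not taken as pairs. With 4 mice per group the 95% intervals of the markers still include log2 differences of up to -0.84 (*Pdgfra*), and so do not exclude differences of that size. *Dcn*, the narrowest, spans -0.17 to 0.14.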
